A study of Mus musculus with 115 samples.

Results

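Keratins are the intermediate filament proteins of epithelial cells. A filament is built from pairs of a type I and a type II keratin, and the pair in use tells the kind of epithelium: Krt8 with Krt18 in simple and luminal cells, Krt5 with Krt14 in basal cells, Krt1 with Krt10 in the suprabasal epidermis. In female mice the inguinal fat pad is the site of the mammary gland, whose ducts have an inner luminal layer, marked by Krt8, Krt18, Krt19 and Krt7, and an outer basal layer of myoepithelial cells, marked by Krt5, Krt14 and Krt17. Hepatocytes carry Krt8 and Krt18 alone, and bile duct cells add Krt7 and Krt19.

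The family was taken as every probe whose gene symbol begins with Krt and not with Krtap, older symbols such as Krt1-23 (now Krt23) included. The rule found 47 of the 25697 probes of the array, for 40 of its 17848 genes by current name. Of these, 44 probes belonged to 37 genes with a keratin name, and the other three were Krtcap2, Krtcap3 and Krtdap, which are not filament proteins. The label keratin therefore fits 44 of the 47 probes by name. For 3 of the 44 the name is uncertain: the files call them Krtcap1, which RefSeq lists as a synonym of Krt75, and they are given here as Krt75.

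Transcripts were measured on Illumina BeadChips in 55 arrays of inguinal adipose tissue and 60 of liver, from mice of the C57BL/6J background with a Y chromosome that lacks Sry, the testis-determining gene. XX and XY- mice carried no Sry and formed ovaries, while XXSry and XY-Sry mice carried it as an autosomal transgene and formed testes. All groups had lost their gonads at 75 days of age and received a capsule at the same time, either blank (B), with testosterone (T, 5 mM) or with estradiol (E, 50 µg), and tissue was collected 3 weeks later. Each of the 12 groups of liver held 5 arrays, and those of adipose held 3 (XX B), 4 (XXSry E, XX T, XY-Sry B) or 5. The mice compared as with and without Sry therefore had no gonads when sampled, and the gonad contrast joins their earlier gonads with the transgene itself.

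Levels are log2 of the background-corrected, normalised bead signal. The median raw signal of an array was 130 to 230 in adipose and 124 to 159 in liver, and 40.3% to 49.0% of probes in an adipose array and 31.8% to 41.0% in a liver array were detected (detection p under 0.01). A level belongs to its probe, so levels of different members are not set against each other. Differences and standard errors (SE) come from limma, and a probe was called at an adjusted p under 0.05, after Benjamini-Hochberg adjustment across every tested probe. Nothing in the labels says whether each array is a separate animal, so p-values measure the spread between these arrays. In whole tissue, fewer cells of a type and less RNA per cell cannot be told apart.

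The adipose array XX E replicate 1 has label fields that disagree on the capsule and was kept as estradiol. By marker genes, 7 adipose arrays stood apart. XY- E replicate 1, XX T replicate 3 and XY- T replicate 4 had high epidermal signal (log2 of the summed signal 13.2, 12.0 and 11.6). XXSry B replicate 2 had high hair follicle signal (10.1). XY-Sry T replicate 1, XX T replicate 4 and XXSry B replicate 1 had high hepatocyte signal (16.2, 14.0 and 13.9). Each count in adipose was also computed without these 7 arrays, a choice made after seeing the data. In liver, 2 arrays went against their labels. The array labelled XY-Sry T replicate 5 had the Y-linked transcript Eif2s3y at 4.53 (6.84 to 8.14 in the other arrays of its group), and the array labelled XY- E replicate 5 had Hsd3b5, a gene that was high in the testosterone arrays, at 12.26 (4.50 to 7.50 in its group). Without both, Krt23 remained the member called for estradiol in liver, as described with the liver results.

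Of the 47 probes, 20 passed the detection filter in adipose (detected in at least 3 arrays) and 10 in liver (at least 5). 7 probes passed in both tissues, 13 in adipose alone and 3 in liver alone. In adipose the probes that passed were the 5 luminal or simple-epithelial keratins (Krt7, Krt8, Krt18, Krt19, Krt20), the 4 basal ones (Krt5, Krt14, Krt15, Krt17), 1 of 5 probes of the stress keratins (Krt6b), 1 of 4 of the suprabasal epidermal ones (Krt10), 2 of 3 of the internal stratified ones (Krt4, Krt78), 2 of 21 of the hair and nail keratins (Krt36, Krt82), Krt23 and Krt80, and all of Krtcap2, Krtcap3 and Krtdap. By filament type these were 9 of 19 type I and 8 of 25 type II probes. Only Krt10, Krtcap2 and Krtcap3 were detected in every adipose array.

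17 of the remaining probes were detected in no adipose array and 10 in 1 or 2 arrays. Of those 10, 7 were detected in XXSry B replicate 2, the array with hair follicle signal: Krt27, Krt34, Krt35, Krt71, Krt73 and both probes of Krt86, keratins of the hair shaft and its sheath. Krt1, the epidermal partner of Krt10, was detected in XY- E replicate 1, which had the highest epidermal signal. In liver, 33 probes were never detected and 4 in fewer than 5 arrays, and the 10 that passed were Krt8, Krt18, Krt10, Krt23, Krt80, 3 hair and nail keratins (Krt32, Krt75, Krt84), Krtcap2 and Krtcap3. None of the 4 basal and none of the 5 stress probes passed in liver.

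The promoters below show the regulatory sequence of the luminal keratins Krt8, Krt18 and Krt7, of the basal keratins Krt5 and Krt14, and of Krt23, the member that changed in both tissues. RefSeq's promoter table (GRCm38.p6) matched 27 of the 40 family genes and 14 of the 20 genes that passed in adipose. Each line is the 250 bases before the gene's start, 5′ to 3′ on the gene's strand: chr15:102004343-102004592 (minus) for Krt8, chr15:102027966-102028215 (plus) for Krt18, chr15:101412153-101412402 (plus) for Krt7, chr15:101712906-101713155 (minus) for Krt5, chr11:100206031-100206280 (minus) for Krt14 and chr11:99493121-99493370 (minus) for Krt23. Capitals mark matches, on either strand, to the motifs named after the sequences.
Krt8: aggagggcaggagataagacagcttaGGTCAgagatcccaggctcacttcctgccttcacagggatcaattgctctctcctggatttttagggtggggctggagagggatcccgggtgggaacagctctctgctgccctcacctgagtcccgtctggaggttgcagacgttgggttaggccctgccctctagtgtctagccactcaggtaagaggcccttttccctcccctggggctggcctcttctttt
Krt18: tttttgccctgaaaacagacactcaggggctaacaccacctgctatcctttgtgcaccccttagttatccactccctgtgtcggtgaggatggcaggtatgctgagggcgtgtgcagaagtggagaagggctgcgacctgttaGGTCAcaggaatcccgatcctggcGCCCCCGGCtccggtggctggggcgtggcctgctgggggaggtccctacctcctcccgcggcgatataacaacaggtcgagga
Krt7: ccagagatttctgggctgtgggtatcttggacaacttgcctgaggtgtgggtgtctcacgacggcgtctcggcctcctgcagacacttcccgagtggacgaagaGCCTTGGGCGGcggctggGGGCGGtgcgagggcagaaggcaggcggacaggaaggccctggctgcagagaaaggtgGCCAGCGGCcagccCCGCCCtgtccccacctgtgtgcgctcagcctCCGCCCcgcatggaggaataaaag
Krt5: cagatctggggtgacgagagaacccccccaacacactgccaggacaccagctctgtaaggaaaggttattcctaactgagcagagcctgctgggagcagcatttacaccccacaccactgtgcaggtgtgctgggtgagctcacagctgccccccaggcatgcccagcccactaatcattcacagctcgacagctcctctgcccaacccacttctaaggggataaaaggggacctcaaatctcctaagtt
Krt14: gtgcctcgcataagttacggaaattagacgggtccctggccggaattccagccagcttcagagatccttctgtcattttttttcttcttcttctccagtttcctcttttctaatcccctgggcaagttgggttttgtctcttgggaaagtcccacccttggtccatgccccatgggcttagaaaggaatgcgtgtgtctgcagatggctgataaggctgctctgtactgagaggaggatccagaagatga
Krt23: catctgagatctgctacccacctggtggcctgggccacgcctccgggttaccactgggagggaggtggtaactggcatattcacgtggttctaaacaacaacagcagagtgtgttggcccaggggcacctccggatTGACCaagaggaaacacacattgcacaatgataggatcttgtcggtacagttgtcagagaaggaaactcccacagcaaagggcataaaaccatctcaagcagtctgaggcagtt

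The motifs searched were the TATA box TATAAA, the GC box GGGCGG, the AP-2 type site GCCNNNGGC, the estrogen response half-site GGTCA and the full element GGTCANNNTGACC, which holds the half-site. Krt8 had 1 half-site, 224 bases before the start, Krt18 had 1 at 107 and Krt23 had 1 at 114. Krt18 also had 1 AP-2 type site at 83 bases, and Krt7 had 4 GC boxes and 2 AP-2 type sites, of which one overlaps a GC box. None of these motifs was found in the Krt5 and Krt14 windows, and neither TATAAA nor the full estrogen element was found in any of the 6. Of all 32851 promoters of the same length, 35.2% held GGTCA, 13.7% GCCNNNGGC, 32.7% GGGCGG, 12.4% TATAAA and 0.0639% the full element. The starts of Krt8 and Krt18, type II and type I partners, lie 23874 bases apart on chromosome 15 and point away from each other.

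The first comparison asked how keratins differ in fat between mice with and without Sry. Luminal and basal keratins were both far lower in the fat of mice with Sry. 12 of the 20 tested members were called lower and 0 higher, where 7.34% of all 14636 tested probes were called, 4.71% lower and 2.63% higher. The 12 were Krt8, Krt18, Krt19, Krt7, Krt14, Krt5, Krt17, Krt15, Krt23, Krt6b, Krt4 and Krtcap3. The median difference was −0.72 over the 20 members and 0.03 over all tested probes. A member that is high in one group can pass the detection filter through that group, so neither the count nor the median speaks for the 27 probes that did not pass. Krt4 and Krt6b passed mainly through estradiol arrays without Sry, so they lend the count of 12 no support. Krt5, detected in 24 of 27 arrays without Sry and in 2 of 28 with it, passed through the side without Sry. It lends the count no support either.

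Krt18, the type I partner of Krt8 in luminal cells, had a lowest, median and highest level of 8.31, 10.16 and 11.18 in the 27 arrays without Sry and of 4.60, 5.71 and 8.90 in the 28 arrays with Sry. It was detected in all 27 arrays without Sry and in 13 of 28 with it, and the ranges overlapped only between 8.31 and 8.90. The difference, with minus without, was −3.74 ± 0.29 (SE; limma adjusted p = 2.14e-14). By array, Krt18 read 10.70, 9.40 and 11.07 in XX B and 8.39, 8.69, 8.54, 8.31 and 9.79 in XY- B. With Sry it read 5.62, 5.47, 4.64, 6.82 and 5.94 in XXSry B and 4.77, 7.84, 5.75 and 5.53 in XY-Sry B. No blank array with Sry reached the lowest blank array without it. Under estradiol it read 9.97, 10.66, 9.72, 10.16 and 9.63 in XX, 10.71, 10.48, 11.07, 10.37 and 11.18 in XY-, 5.33, 7.74, 7.95 and 5.52 in XXSry, and 8.59, 4.60, 6.47, 5.03 and 5.67 in XY-Sry. The estradiol arrays with Sry thus held both undetected and detected Krt18 within each genotype, while Krt18 was detected in all of those without Sry.

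Krt8, the type II luminal keratin, ran from 8.69 over a median of 11.32 to 13.18 without Sry and from 4.90 over 7.45 to 10.80 with Sry. It was detected in 27 of 27 and 27 of 28 arrays, and the difference was −3.20 ± 0.32 (limma adjusted p = 2.76e-11). Krt19, a type I luminal keratin, ran from 8.16 over 10.33 to 12.09 without Sry and from 4.45 over 5.92 to 9.29 with Sry, a difference of −3.84 ± 0.27 (limma adjusted p = 8.91e-16). Both had overlapping ranges, and Krt19 was detected in 15 of 28 arrays with Sry. Krt7, a type II simple-epithelial keratin, ran from 6.72 over 9.09 to 9.97 without Sry and from 4.70 over 5.86 to 7.47 with Sry, detected in 13 of 28, a difference of −2.85 ± 0.18 (limma adjusted p = 2.36e-17). Krt20, the keratin of intestinal and urothelial surface cells, was detected in 7 arrays of each kind, and its difference was −0.04 ± 0.14 (limma adjusted p = 0.919).

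Among the basal keratins, Krt14 ran from 9.77 over 11.40 to 12.42 without Sry and from 4.67 over 7.54 to 10.96 with Sry, a difference of −3.75 ± 0.36 (limma adjusted p = 8.88e-12). It was detected in 21 of the 28 arrays with Sry, and the ranges overlapped. Its type II partner Krt5 ran from 5.87 over 7.34 to 8.65 without Sry and from 4.55 over 5.17 to 6.27 with Sry. Krt5 was detected in 24 of 27 arrays without and in 2 of 28 with Sry, and the difference was −1.93 ± 0.14 (limma adjusted p = 5.01e-15). Krt17, found in myoepithelium and hair follicles, ran from 6.76 over 8.44 to 9.61 and from 4.55 over 5.21 to 8.12, a difference of −2.83 ± 0.24 (limma adjusted p = 4.63e-13), detected in 8 of 28 arrays with Sry. Krt15, a keratin of basal cells and follicle stem cells, ran from 4.66 over 5.87 to 8.51 and from 4.87 over 5.45 to 6.74, a smaller difference of −0.66 ± 0.15 (limma adjusted p = 0.00232), with nearly full overlap.

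**Figure D1:**
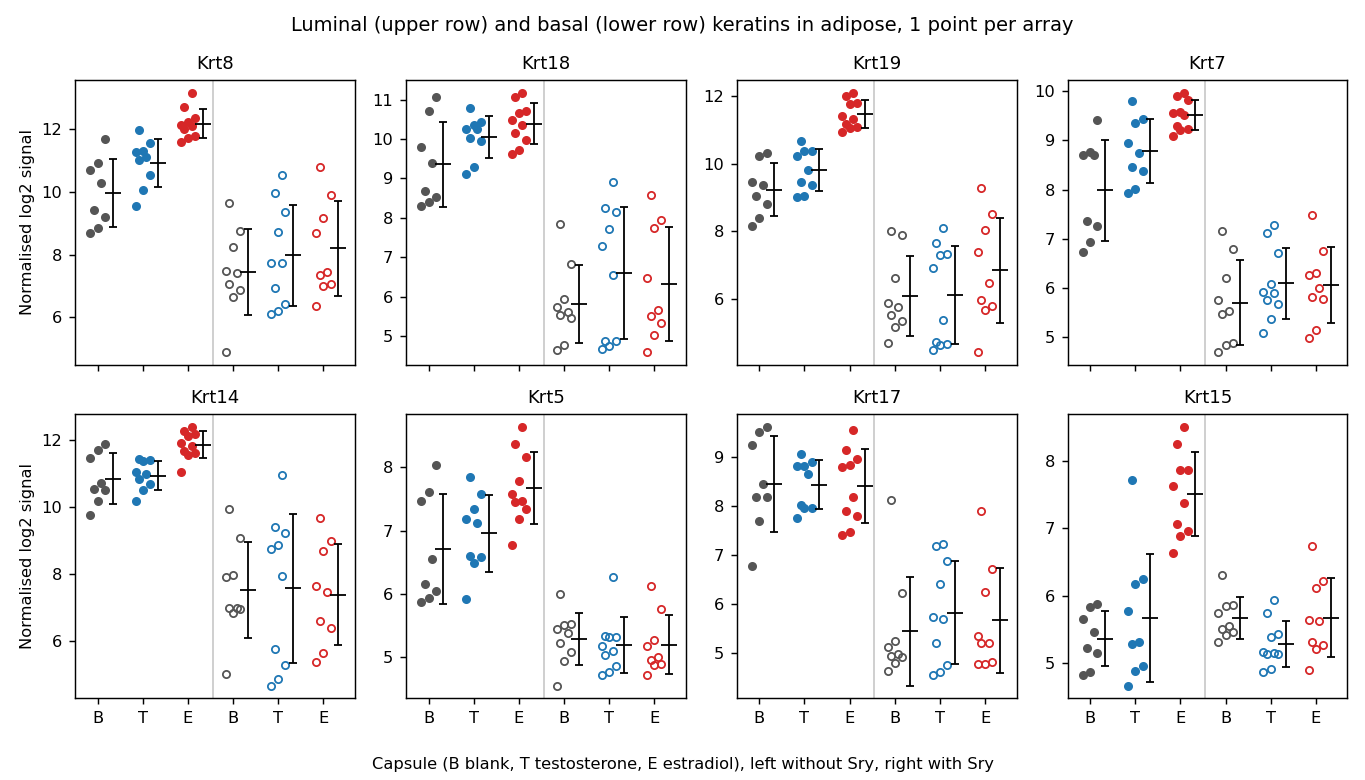
Level (log2 signal) of the luminal and basal keratins in each adipose array, one panel per keratin and one column per capsule (grey blank, blue testosterone, red estradiol), XX and XY arrays together. Filled points on the left are arrays without Sry and open points on the right arrays with Sry; black bars are the mean ± SD of a column. Krt18 reads 8.31 or more in every array without Sry, and from 4.60 to 8.90 in those with Sry.

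Arrays with Sry were not uniform, and single arrays within them kept high keratin levels. Krt14 read 10.96 in XY-Sry T replicate 5, the highest level with Sry, where the other arrays of that group read 4.67, 7.95, 4.87 and 5.77. That array read 4.88 for Krt18, so its Krt14 was high without its luminal keratins. XY-Sry T replicate 1, the array with the most hepatocyte signal, had the highest Krt18 with Sry (8.90) and a Krt8 of 10.53, while its Krt19 (4.49) and Krt14 (4.67) were low. Krt8 and Krt18 are the keratins of hepatocytes, and the part of the hepatocyte signal in this result was not tested. Without the 7 arrays that stood apart, all of the 12 calls were kept and Krtdap was added. Krtdap is among the epidermal markers by which some of those arrays were set apart, so its added call is no support.

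Krt23, Krt6b, Krt4 and Krtcap3 were also lower with Sry. Krt23, a type I keratin, ran from 5.67 over 7.54 to 8.84 without and from 4.72 over 5.56 to 7.38 with Sry, a difference of −1.44 ± 0.19 (limma adjusted p = 5.7e-08). Krt6b, a stress keratin made in wounded and hyperproliferative epithelium, was detected in 11 of 27 arrays without and 1 of 28 with Sry. Its difference was −1.22 ± 0.19 (limma adjusted p = 2.57e-06). The other Krt6b probe was detected in no adipose array. Krt4, a keratin of internal stratified epithelia, was detected in 8 of 27 arrays without Sry and well above background in none of the 28 with Sry. Its measured means were 5.44 and 4.98 (limma adjusted p = 1.1e-06), and the bound on a fold was below 1, so no fold is given. Krtcap3 ran from 9.53 over 10.29 to 10.86 and from 8.86 over 9.50 to 10.04, a difference of −0.77 ± 0.09 (limma adjusted p = 2.43e-09).

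The members not called for gonad type were Krt20, Krt10, Krt36, Krt78, Krt80, Krt82, Krtcap2 and Krtdap. Krt10, the suprabasal epidermal keratin, ran from 8.72 over 9.37 to 12.06 without and from 8.57 over 9.31 to 9.96 with Sry, a difference of −0.24 ± 0.15 (limma adjusted p = 0.458). Its value of 12.06 was in XY- E replicate 1, where Krtdap, a protein secreted by differentiating epidermis, also had its highest level of 10.22. Krtdap differed by 0.63 ± 0.30 (limma adjusted p = 0.256). Without the 7 arrays that stood apart it was 1.12 higher with Sry (limma adjusted p = 3.68e-05), and without XY- E replicate 1 alone it was called at 0.81. Krtdap is itself among the epidermal markers that set arrays apart. The 3 epidermal arrays carried no Sry and read 8.74, 10.22 and 9.48 for Krtdap. Leaving them out lowers the side without Sry by construction, so these Krtdap calls are no support for a difference. Krt82, a hair cuticle keratin, was detected in 0 arrays without and 3 with Sry (limma adjusted p = 0.0634). It was called higher when XY- E replicate 3 or any 1 of 7 other arrays was left out. Its other probes were detected in no adipose array. Krt78 was likewise detected in 0 and 3 (limma adjusted p = 0.896). The differences of Krt36 (0.06), Krt80 (−0.07) and Krtcap2 (0.00) were small against their spread.

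**Figure D2:**
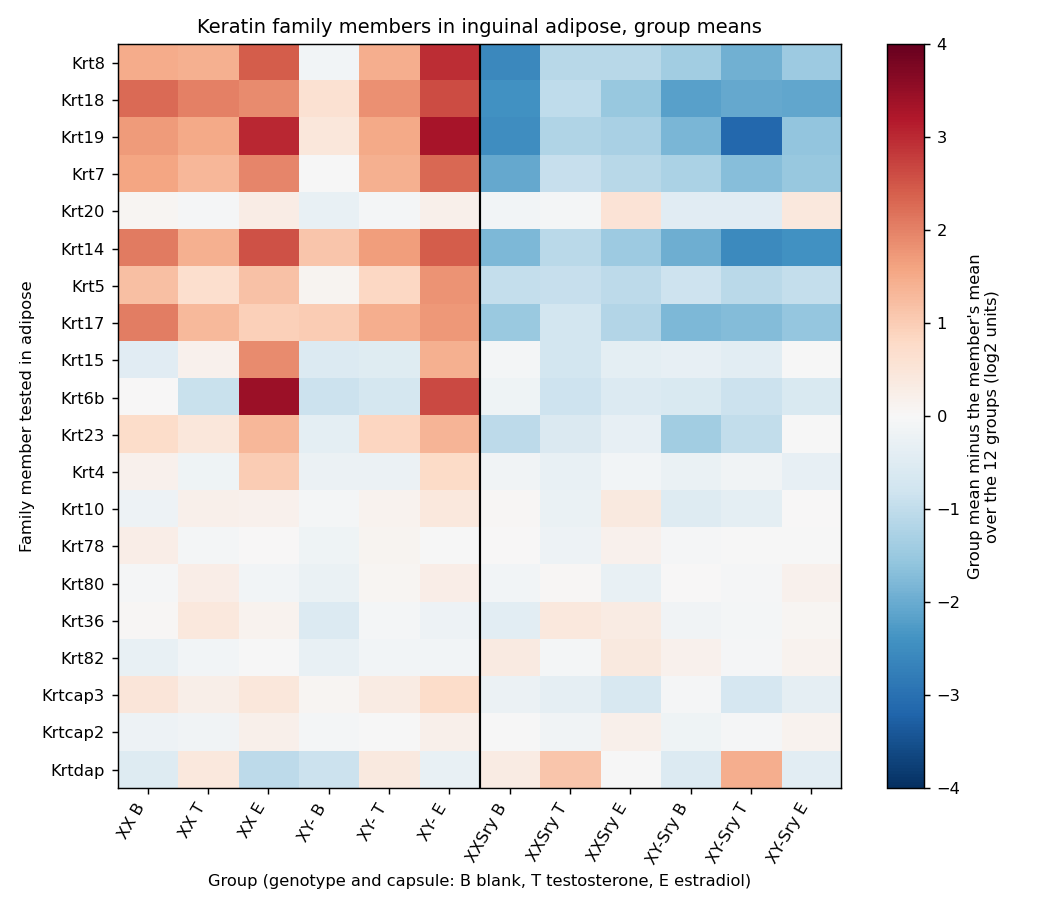
Mean level of each tested member in each of the 12 adipose groups, given as the group mean minus the member's mean over the 12 groups (log2 units, colour). The luminal keratins Krt7, Krt8, Krt18 and Krt19 and the basal keratins Krt5, Krt14 and Krt17 lie above their own mean in the groups without Sry, apart from XY- B, where some are near it, and below it in those with Sry, whereas Krt6b and Krt15 rise in XX E and XY- E.

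Within a capsule, the gonad contrast can be read with the same treatment on both sides. Among blank arrays (8 without, 9 with Sry), 8 members were called lower and 0 higher, with 1.8% of all tested probes called and 1.69% lower. Krt18 differed by −3.73 ± 0.53, Krt14 by −3.46 ± 0.64, Krt19 by −3.25 ± 0.49, Krt17 by −3.16 ± 0.44, Krt8 by −2.67 ± 0.57, Krt7 by −2.43 ± 0.32 and Krt23 by −1.36 ± 0.34. Krt5 was well above background in none of the 9 blank arrays with Sry and was at least 1.58-fold lower there (measured means 6.71 and 5.29). Because Krt5 passed the detection filter through the arrays without Sry, it lends the count of 8 no support. Only Krt18 and Krt19 had no overlap between the blank arrays, as did 0.526% of all tested probes on the lower side. The Krt23 call under blank was lost without XX B replicate 3.

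Under testosterone (9 without, 10 with Sry), 9 members were called lower, against 3.42% of all tested probes called and 2.6% lower, and under estradiol (10 without, 9 with Sry) all 12 were, against 4.4% called and 3.03% lower. Under testosterone Krt19 differed by −3.69, Krt18 by −3.46, Krt14 by −3.36, Krt8 by −2.96, Krt7 by −2.69, Krt17 by −2.60, Krt5 by −1.76, Krt23 by −1.43 and Krtcap3 by −0.78. Krt7, Krt17, Krt18 and Krt19 had no overlap there, as did 0.574% of all tested probes on the lower side. Under estradiol Krt19 differed by −4.59, Krt14 by −4.43, Krt18 by −4.04, Krt8 by −3.97, Krt7 by −3.44, Krt17 by −2.72, Krt5 by −2.49, Krt15 by −1.86, Krt23 by −1.53 and Krtcap3 by −1.09. Krt6b, well above background in 10 of 10 estradiol arrays without Sry and in 0 of 9 with it, was at least 6.51-fold lower, and Krt4 at least 1.10-fold. 9 members had no overlap under estradiol (Krt14, Krt18, Krt19, Krt4, Krt5, Krt6b, Krt8, Krt7 and Krtcap3), against 1.64% of all tested probes on the lower side. Krt4 and Krt6b passed the detection filter mainly through the estradiol arrays without Sry (8 of 8 and 10 of 12 of their detections). They therefore lend no support to the counts of 12 and 9 under estradiol. Nor does Krt5, which passed through the arrays without Sry, and it lends none to the count under testosterone.

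**Figure D3:**
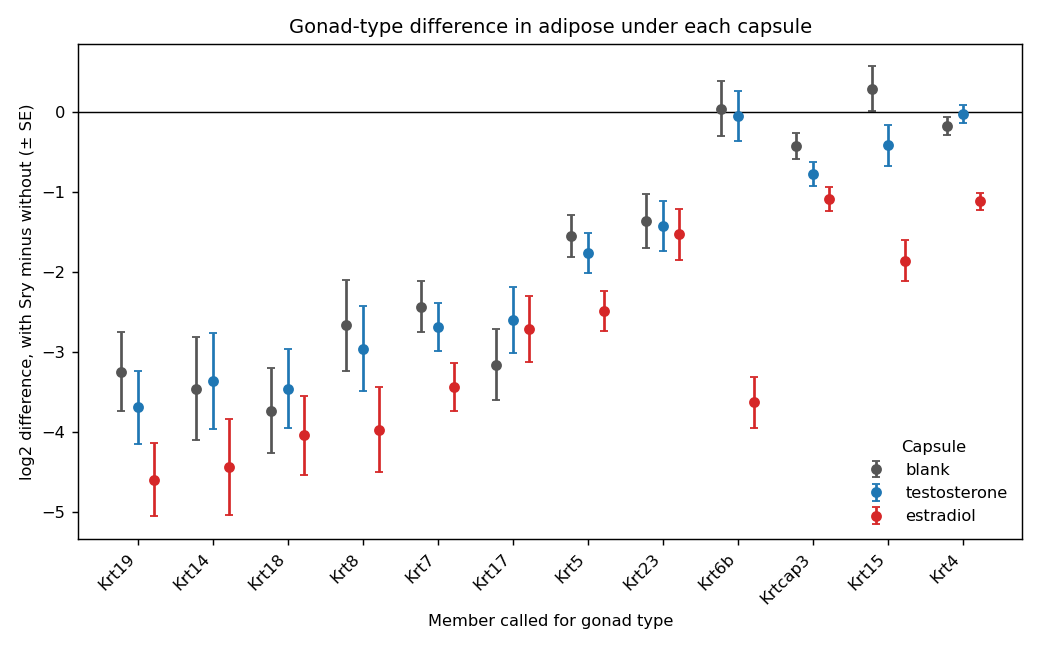
Difference in level between adipose arrays with and without Sry (log2 units, with minus without, ± SE) for the 12 members called for gonad type, under the blank, testosterone and estradiol capsules. The differences of Krt18, Krt19, Krt14, Krt8, Krt7, Krt17 and Krt5 are below −1.5 under each capsule, while Krt6b and Krt15 were called under estradiol and not under the other capsules. All points are differences of measured signal; with Sry, Krt5 under blank and Krt6b and Krt4 under estradiol were above background in no array, so their sizes there are given in the text only as bounds.

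The differences were also read within each of the 8 slides. The slides were unequal: that of XXSry B replicate 2, the array with hair follicle signal, held only XY- B replicate 1 beside it. Its differences therefore set a single array against a single array. Krt18 (−4.41 to −2.92), Krt19 (−4.57 to −3.05), Krt8 (−4.31 to −2.22), Krt7 (−3.30 to −1.84), Krt14 (−4.85 to −1.09), Krt5 (−2.33 to −0.71) and Krtcap3 (−1.0 to −0.40) were lower with Sry in 8 of 8 slides. Krt17 (−3.59 to 0.43), Krt15 (−1.21 to 0.60) and Krt23 (−2.07 to 0.93) were lower in 7 of 8, and Krt6b (−2.36 to 0.39) in 6 of 8. Krt4, above background in none of the 28 arrays with Sry, was left out of this reading.

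The sex chromosome contrast, XX minus XY groups, called 0 of the 20 members (limma), where 0.137% of all tested probes were called. At an unadjusted p under 0.05 there were 2 members, against 1350 of all tested probes. Some levels without Sry still differed by genotype under the blank capsule: the group means of Krt18 were 10.39 ± 0.88 in XX B (SD, n = 3) and 8.74 ± 0.60 in XY- B (SD, n = 5), and those of Krt8 were 10.97 ± 0.70 and 9.38 ± 0.80. That difference within the blank capsule was not tested.

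The second comparison asked what the hormone capsules did to the same keratins. Estradiol raised the luminal or simple-epithelial keratins Krt19, Krt8, Krt7 and Krt20, and Krt15 was the only basal keratin called. In all, 9 of 20 members were called higher than under blank and 0 lower. Of all tested probes 20.5% were called, 10.4% higher and 10.1% lower. The 9 were Krt6b, Krt19, Krt8, Krt23, Krt15, Krt7, Krt20, Krt4 and Krtcap2. Krt6b and Krt4 passed the detection filter mainly through estradiol arrays without Sry, so they lend this count no support. The median difference was 0.42 over the 20 members and −0.02 over all tested probes. The blank and estradiol arrays of the 9 overlapped when both gonad types were pooled.

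The largest response was that of Krt6b, read from the only Krt6b probe that passed the filter. The other Krt6b probe was detected in 0 of 55 adipose arrays, with a highest level of 4.97. Without Sry its lowest, median and highest levels were 4.53, 4.70 and 7.71 under blank, 4.57, 4.78 and 5.39 under testosterone, and 6.15, 8.96 and 9.46 under estradiol. With Sry they were 4.65, 5.03 and 7.31 under blank, 4.46, 4.58 and 5.49 under testosterone, and 4.54, 4.82 and 5.56 under estradiol. Estradiol arrays without Sry overlapped with the blank ones only between 6.15 and 7.71, and those with Sry stayed in the range of the blank arrays apart from their lowest. Over both gonad types estradiol minus blank was 1.63 ± 0.23 (limma adjusted p = 4.66e-07), 3.47 without Sry and −0.20 with it. Krt6b was above background in 10 of 10 estradiol arrays and 1 of 8 blank arrays without Sry, and in 0 of 9 and 1 of 9 with Sry, so much of these differences rests on readings at background. The difference between those responses was −3.67 ± 0.46 (limma adjusted p = 4.21e-07).

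Krt15 was likewise high under estradiol without Sry. There it ran from 4.82 over 5.34 to 5.87 under blank and from 6.64 over 7.50 to 8.51 under estradiol, with no overlap. With Sry it ran from 5.31 over 5.55 to 6.31 and from 4.90 over 5.62 to 6.74. The estradiol response was 1.06 ± 0.19 over both gonad types (limma adjusted p = 3.3e-05). Without Sry, Krt15 was above background in 10 of 10 estradiol arrays (mean 7.51) and in 0 of 8 blank arrays (mean 5.36), so its level was at least 2.76-fold higher with estradiol. With Sry it was above background in 3 of 9 estradiol and 2 of 9 blank arrays, and the response was −0.01. The responses differed between gonad types (limma adjusted p = 0.00037), with no size given because of the undetected blank arrays. Krt4 ran from 4.84 over 5.12 to 5.71 under blank and from 5.56 over 6.11 to 6.56 under estradiol without Sry, and from 4.71 over 4.96 to 5.32 and from 4.72 over 4.95 to 5.54 with Sry. It was well above background in no blank array, so no fold is given; its means were 5.06 under blank and 5.56 under estradiol (limma adjusted p = 3.19e-05), and the responses differed between gonad types (limma adjusted p = 0.000197). These 3, Krt6b, Krt15 and Krt4, were the members called for a gonad-dependent estradiol response, 3 of 20, where 0.813% of all tested probes were called and 0.56% in the lower direction. Krt4 and Krt6b passed the detection filter mainly through the estradiol arrays without Sry, where they are high (8 of 8 and 10 of 12 of their detections), so the count of 3 is no support for a pattern of the family. A stricter detection filter left 13 members in the test and these 3 out of it. Each call held when any single array was left out.

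**Figure D4:**
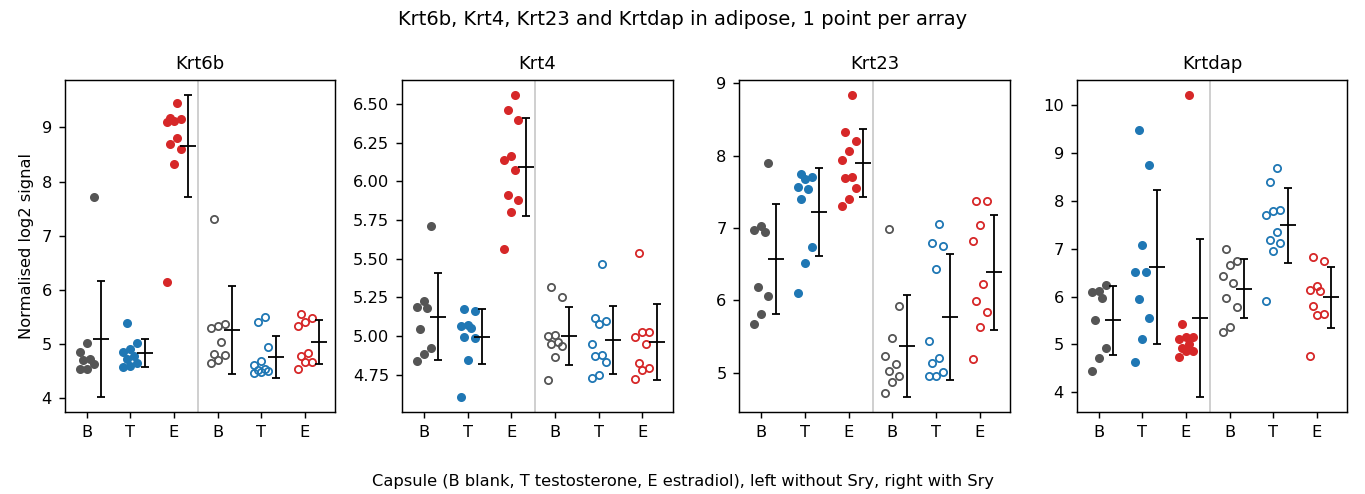
Level (log2 signal) of Krt6b, Krt4, Krt23 and Krtdap in each adipose array by capsule (grey blank, blue testosterone, red estradiol), XX and XY arrays together, with filled points on the left for arrays without Sry, open points on the right for arrays with Sry and black bars for the mean ± SD of a column. Krt6b is 6.15 to 9.46 in the estradiol arrays of XX and XY- and at most 5.56 in those of XXSry and XY-Sry. Krt23 has a higher mean under estradiol than under blank with and without Sry.

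Krt23 read higher on average under estradiol than under blank in both gonad types. Without Sry it ran from 5.67 over 6.57 to 7.90 under blank and from 7.31 over 7.83 to 8.84 under estradiol, and with Sry from 4.72 over 5.12 to 6.99 and from 5.19 over 6.23 to 7.38. The ranges overlapped in each gonad type, and the difference was 1.11 ± 0.23 (limma adjusted p = 0.000324), 1.19 without and 1.03 with Sry. With Sry, Krt23 was above background in 7 of 9 estradiol and 1 of 9 blank arrays. The value of 1.03 therefore rests mostly on blank readings at background. The response within a single gonad type was not tested.

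Of the luminal keratins, Krt19 rose by 1.40 ± 0.34 (limma adjusted p = 0.00168), Krt8 by 1.36 ± 0.39 (limma adjusted p = 0.00872), Krt7 by 0.84 ± 0.22 (limma adjusted p = 0.00388) and Krt20 by 0.56 ± 0.17 (limma adjusted p = 0.0126). Without Sry, Krt19 ran from 8.16 over 9.21 to 10.33 under blank and from 10.94 over 11.36 to 12.09 under estradiol, with no overlap. Krt8 ran from 8.69 over 9.87 to 11.69 and from 11.60 over 12.13 to 13.18, which overlapped narrowly. The responses without and with Sry were 2.07 and 0.73 for Krt19, 2.01 and 0.71 for Krt8, and 1.34 and 0.33 for Krt7, and the difference between them was not called for any (limma adjusted p = 0.853, 0.999 and 0.676). In XX, XY-, XXSry and XY-Sry they were 1.31, 2.84, 1.19 and 0.26 for Krt19 and 0.95, 3.08, 1.47 and −0.05 for Krt8. For Krt7 they were 0.37, 2.30, 0.94 and −0.27. Each was largest in XY-, and Krt8 and Krt7 did not rise in XY-Sry. Differences between single genotypes were not tested.

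Slide and capsule were partly confounded. With slide as a block the estradiol difference was 1.46 for Krt19 (limma adjusted p = 0.0148), but 1.11 for Krt8 (0.117), 0.62 for Krt7 (0.068) and 0.45 for Krt20 (0.0932), which lost their calls. Within the 2 slides that held both capsules the differences were 0.86 and 1.25 for Krt19, 0.78 and 0.82 for Krt8, and 0.20 and 0.62 for Krt7. They were 1.05 and 1.98 for Krt6b and 0.92 and 0.98 for Krt23. Krt20 also lost its call without the 7 arrays that stood apart (0.49, limma adjusted p = 0.0552) and without XX B replicate 1.

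Krt18 and the main basal keratins were not called for estradiol. Krt18 differed by 0.67 ± 0.36 (limma adjusted p = 0.204), Krt14 by 0.41 ± 0.44 (0.573), Krt5 by 0.36 ± 0.18 (0.164) and Krt17 by 0.04 ± 0.30 (0.952). The genotypes without Sry were far apart for several of these. Krt18 differed between estradiol and blank by −0.36 in XX and 2.02 in XY-, Krt5 by −0.05 and 1.70, Krt17 by −1.09 and 0.72, and the called Krt8 by 0.95 and 3.08. XX B held only 3 arrays, and the difference between XX and XY- in the estradiol response was not tested.

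Krt10 differed by 0.43 ± 0.19 (limma adjusted p = 0.0941). It was called with slide as a block (0.64, limma adjusted p = 0.0327) and without the 7 arrays that stood apart (0.34, limma adjusted p = 0.0383), and also without XY- E replicate 3 (0.50). Krtcap2, a subunit of the oligosaccharyltransferase complex, rose by 0.29 ± 0.07 (limma adjusted p = 0.000996), a call that median centring of the arrays ended. Krtcap3 (−0.02) and Krtdap (−0.05) were near 0. Without the 7 arrays that stood apart 9 members were called for estradiol, 8 of them among the original 9, with Krt20 lost and Krt10 gained.

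Testosterone changed 1 member of 20, where 4.75% of all tested probes were called, 2.16% higher and 2.59% lower. Krtdap ran from 4.44 over 5.74 to 6.25 under blank and from 4.63 over 6.51 to 9.48 under testosterone without Sry, and from 5.26 over 6.27 to 7.0 and from 5.92 over 7.53 to 8.69 with Sry. The ranges overlapped, the difference was 1.23 ± 0.38 (limma adjusted p = 0.0452), and the call was lost when any one of 24 arrays was left out. Without the 7 arrays that stood apart, 3 of which had epidermal signal and were not blank arrays, 0 members were called. Krtdap is among the markers that set those 3 apart, so the loss of its call there follows in part from that choice. Among the keratins by name, the differences were 0.63 for Krt18 (limma adjusted p = 0.354), 0.61 for Krt8 (0.412), 0.47 for Krt7 (0.231) and 0.44 for Krt36 (0.195). The testosterone response differed by gonad type in 0 of 20 members, also at an unadjusted p under 0.05, where 0.0137% of all tested probes were called (limma) and 623 had such a p.

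Levels of keratin partners were also compared from array to array within a gonad type. After each group's mean was removed, Krt8 and Krt18 correlated across the 27 arrays without Sry (Pearson r = 0.80, Spearman rho = 0.79) and the 28 with Sry (r = 0.95, rho = 0.91), each with a Pearson permutation p of 1e-05, the smallest these permutations can give, and 2e-05 adjusted over the 6 correlations. Krt5 and Krt14 correlated at r = 0.81 and rho = 0.75 without Sry (permutation p = 1e-05, adjusted 2e-05) and at r = 0.53 and rho = 0.38 with Sry (permutation p = 0.00442, adjusted 0.00663). With Sry, Krt5 was above background in 2 of the 28 arrays and Krt18 in 13, so the value for Krt5 and Krt14 there rests almost wholly on Krt5 readings at background. Leaving out the 2 arrays farthest from the median gave r = 0.74 and 0.93 for the first pair and 0.74 and 0.49 for the second.

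Krt18 and Krt14, one luminal and one basal, were compared in the same way. Without Sry r was 0.51 and rho 0.49 (permutation p = 0.00667, adjusted 0.008), but r fell to 0.30 (permutation p = 0.146) without the 2 farthest arrays. In this processing the size of r therefore depends on them. They were chosen as farthest in Krt18, which narrows its range, and rho was not recomputed without them. Without the 2 farthest arrays r was 0.28 (permutation p = 0.173) when no background correction was made, and 0.55 (permutation p = 0.00442) with median centring. With Sry r was 0.40 and rho 0.50 (permutation p = 0.0343, adjusted 0.0343), and r was 0.51 without the 2 farthest arrays. The arrays share normalisation and slides, which can add to such correlations.

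Other epithelial genes were read beside the keratins. Among all tested adipose probes 4.71% were lower and 2.63% higher with Sry. Of the pan-epithelial markers, 4 of 5 tested probes were lower with Sry in adipose and 0 higher (median −1.96), and their summed signal had a median of 2370 without and 280 with Sry. Of the mammary luminal markers 8 of 8 probes were lower (median −2.49), among them the milk protein gene Csn3 (−4.18), the transcription factor gene Foxa1 (−3.92) and Wfdc18 (−3.68). The pan-epithelial gene Esrp1 was detected in 22 arrays without and 0 with Sry, and the luminal gene Pgr in 10 and 1. Both passed the filter through the side without Sry and lend these counts no support. The 8 tested probes of the myoepithelial or basal markers stand for only 4 genes. Of these probes 6 were lower (median −0.90), led by several probes of the smooth muscle actin gene Acta2 (−1.18). Acta2 was detected in all arrays with and without Sry. The 8 probes for mesothelium, another keratin-bearing cell type, were not detected often enough to be tested. Among 7 adipocyte probes 4 were higher and 0 lower with Sry (median 0.39). The part of the change in cell types in the keratin differences was not tested.

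The markers of other tissues were read in the same way. Among all tested adipose probes 4.71% were lower and 2.63% higher with Sry. Estradiol gave 10.4% higher and 10.1% lower, and testosterone 2.16% higher and 2.59% lower. Of 6 epidermal probes 1 was called lower with Sry (Ivl, −0.83 in measured signal) and the median was 0.02. The single hair follicle probe tested, of Msx2, was called lower by limma (−0.64 in measured signal). Ivl was detected in 8 arrays without and 1 with Sry, and Msx2 in 6 and 0. Both passed the filter through the side without Sry, so their calls are no support for a difference. No probe was called for hepatocytes (0 of 4), skeletal muscle (0 of 5) or lymph node (0 of 8). Of 4 cholangiocyte probes 3 were lower (median −2.09), and these include Krt7 and Krt19 themselves, with Sox9 (−1.32 in measured signal). Sox9 was detected in 19 arrays without and 0 with Sry, so it too passed through the side without Sry and lends this count no support. Under estradiol 3 mammary luminal probes were higher, for Areg (2.24), an EGF receptor ligand, Wfdc18 (1.28) and the progesterone receptor gene Pgr (0.87). The epidermal gene Ivl (1.31) and the pan-epithelial gene Esrp1 (0.41) were higher as well, 0 of 8 myoepithelial probes was called, and 3 of 7 adipocyte probes were lower. Under testosterone, the epidermal genes Krtdap and Sbsn (0.67) and the partner genes Ppl (1.28) and Lmna (0.39) were higher, 1 of 8 lymph node probes was lower, and no other listed probe was called in adipose.

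Genes whose products anchor keratin filaments or build other intermediate filaments gave a mixed picture. Of 51 probes 32 were tested, and 10 were lower and 0 higher with Sry, with a median of −0.04 (all tested probes 0.03). Among all tested probes 4.71% were lower and 2.63% higher with Sry. The largest differences were those of both probes of Col17a1, a hemidesmosomal collagen (−2.31 and −2.26), and of the desmosomal plaque gene Pkp1 (−1.66). Estradiol raised 12 and lowered 1 of the 32 probes (median 0.24), where 10.4% of all tested probes were higher and 10.1% lower. The largest differences were those of Nes (−1.03), the gene of nestin, and Col17a1 (0.83 and 0.78). Of the epithelial transcription factor genes, 9 of 13 tested probes were lower with Sry (median −0.89), led by Foxa1, Gata3 (−3.37) and Elf5 (−2.20), and 0 were called for estradiol (median 0.07).

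In liver the third comparison covered the 10 members that passed. 1 of 10 was called for estradiol, where 6.82% of the 11317 tested probes were called and 3.27% lower. None was called for gonad type (3.4% of all tested probes), testosterone (19.1%), sex chromosomes (0.186%) or the dependence of testosterone (0.124%) or estradiol (0.0795%) on gonad type. At an unadjusted p under 0.05 limma gave 1 member each for gonad type, testosterone and both of these interactions and 0 for sex chromosomes, against 1291, 3509, 659, 622 and 472 of all tested probes. The median difference of the 10 members was 0.04 for gonad type, 0.06 for testosterone and −0.05 for estradiol, near the medians of all tested probes (0.01, 0.00 and −0.02).

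The called member was Krt23, which fell with estradiol in liver and rose with it in fat; the difference between the tissues was not tested. In liver it ran from 6.24 over a median of 7.67 to 10.45 in the 20 blank arrays, from 5.89 over 8.03 to 9.24 in the 20 testosterone arrays and from 5.25 over 6.00 to 8.12 in the 20 estradiol arrays, where it was detected in 17. By array, it read 7.09, 7.74, 6.72, 8.0 and 6.73 in XX B against 5.46, 6.04, 7.28, 5.53 and 6.11 in XX E, and 6.24, 7.33, 7.20, 7.60 and 7.29 in XY- B against 6.43, 5.78, 6.93, 5.65 and 8.12 in XY- E. With Sry, Krt23 read 8.20, 9.13, 7.76, 10.45 and 8.82 in XXSry B against 6.91, 5.93, 6.85, 5.75 and 6.41 in XXSry E, and 8.47, 7.30, 9.32, 7.37 and 8.60 in XY-Sry B against 5.25, 5.93, 5.97, 6.11 and 5.83 in XY-Sry E. The 2 capsules did not overlap in XXSry or XY-Sry and overlapped in XX and XY-. Its differences between estradiol and blank were −2.50 in XXSry, −2.39 in XY-Sry, −1.17 in XX and −0.55 in XY-.

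Over the 4 genotypes estradiol minus blank was −1.65 ± 0.25 for Krt23 (limma adjusted p = 6.52e-06). It was −2.01 with slide as a block and −2.02 and −2.09 within the 2 slides that held both capsules. The highest estradiol value, 8.12, was in the array labelled XY- E replicate 5, and without that array and XY-Sry T replicate 5 the difference was −1.75. The response was −0.86 without and −2.45 with Sry, and the difference of −1.59 ± 0.49 was not called after adjustment (limma adjusted p = 0.303). Testosterone minus blank was 0.05, and the gonad difference was 0.44 ± 0.20 (limma adjusted p = 0.356).

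**Figure D5:**
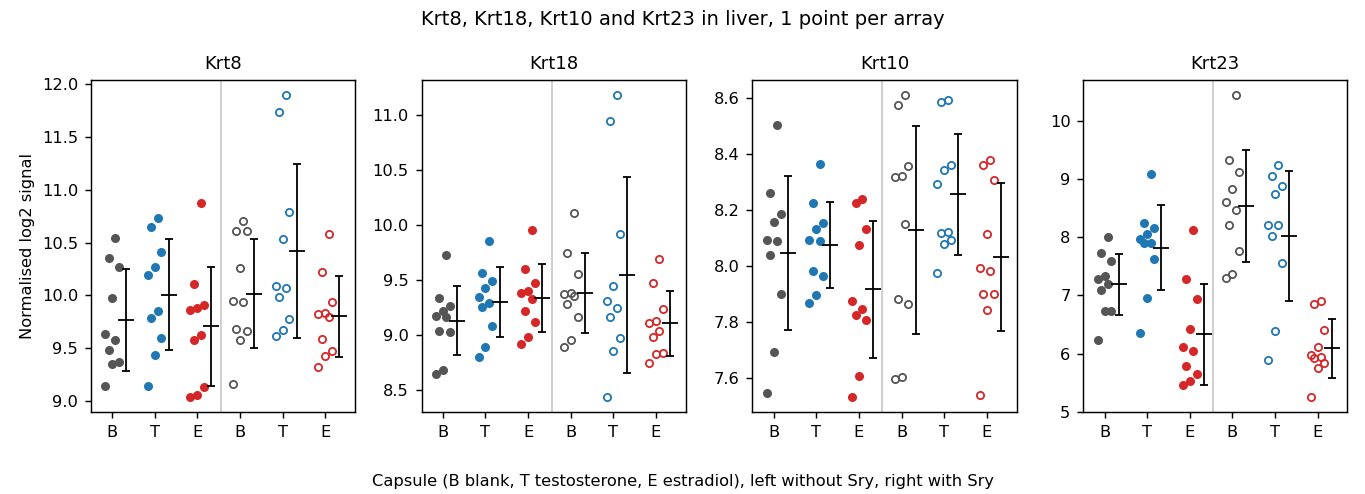
Level (log2 signal) of Krt8, Krt18, Krt10 and Krt23 in each liver array by capsule (grey blank, blue testosterone, red estradiol), XX and XY arrays together, with filled points on the left for arrays without Sry, open points on the right for arrays with Sry and black bars for the mean ± SD of a column. Krt23 runs from 5.25 to 8.12 under estradiol and from 6.24 to 10.45 under blank, and single testosterone arrays with Sry stand above the others for Krt8 and Krt18.

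The hepatocyte pair Krt8 and Krt18 was detected in every liver array, from 9.03 to 11.9 for Krt8 and from 8.43 to 11.2 for Krt18. Krt8 differed by −0.14 for estradiol and by 0.32 ± 0.18 for testosterone (limma adjusted p = 0.218), and Krt18 by 0.17 for testosterone. The highest levels of both were in 2 testosterone arrays with Sry, XXSry T replicate 4 (Krt8 11.74, Krt18 10.94) and XY-Sry T replicate 3 (11.90 and 11.18). The same arrays had the lowest Krt23 of the testosterone arrays with Sry, 6.39 and 5.89. Their summed cholangiocyte marker signal (log2 9.29 and 9.16) lay within the range of all liver arrays (8.28 to 9.74).

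Krt7 and Krt19, the bile duct keratins, did not pass in liver. The summed signal there was 52563 to 78222 for the hepatocyte markers and 311 to 857 for the cholangiocyte markers. These sums are over different probes and are not set against each other. The cholangiocyte markers include Krt7 and Krt19 themselves, so their sum is no separate evidence about them. Krt10 ran from 7.53 to 8.61, and Krtcap2 from 11.7 to 12.6. 1 of the probes counted as Krt75 and named Krtcap1 in the files was detected in 19 of 60 arrays, Krt80 in 12, and Krt84 and Krt32 in 6 each. Of the filament partner genes 21 probes were tested in liver, with 0 called for gonad type, 1 higher and 3 lower for testosterone and 1 higher and 1 lower for estradiol. Among all tested liver probes 3.4% were called for gonad type, 19.1% for testosterone and 6.82% for estradiol. The partner counts are therefore not read as a result about these genes. Only 2 probes of the transcription factor genes were tested, neither of them called.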

How the data were processed

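RNA of 55 inguinal adipose and 60 liver samples was measured on 1-colour Illumina BeadChips. Per the file headers, the authors deposited 2 columns per array that are used here: each probe's mean bead signal, which is a linear intensity, and its detection p-value. The 115 columns of bead standard errors were not used. The submitters' processing notes name lumi, with no step given; the genome build is not given in the sources used here, and no normalisation was seen in the deposited values.

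Each tissue was processed apart in limma 3.58.1 under R 4.3.3: normexp background correction with the negative controls inferred from the detection p-values, an offset of 16, quantile normalisation and log2. The offset understates differences of dim probes. Testing was limited to probes with a detection p under 0.01 in 3 or more adipose or 5 or more liver arrays (the size of the smallest group), which left 14636 and 11317 of 25697 probes. The 12 group means were fitted together (lmFit, eBayes), contrasts weighted groups equally, and p-values were adjusted by Benjamini-Hochberg over all tested probes of a contrast. Levels in the text are per array, so their differences can depart slightly from a contrast. Precision is limited by the number of arrays. Where a probe was well above background in no array of a group, a fold is a bound, from the bright group's mean against the lowest detected signal of the dim group's arrays.

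Every member that passed the filter was to be named, with values for those called in adipose and those tested in liver. Role classes, the lists of filament partners and epithelial transcription factors, and the markers of epithelium, mammary luminal and myoepithelial cells, epidermis, hair follicle, mesothelium, adipocytes, hepatocytes, cholangiocytes, skeletal muscle and lymph node share some members. The members and lists were chosen with earlier results of these data known. Correlations used 100000 permutations. Current symbols and promoters came from RefSeq (GRCm38.p6). Alternatives were background correction, offset, normalisation, filter, slide block, array weights, label conflicts, other-tissue covariates and leaving out arrays. On simulated data for the adipose gonad contrast (14636 probes), 59.7%, 97% and 98.5% of probes changed by 0.5, 1 and 2 on the log2 scale were recovered.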

Additional observations from a re-analysis of the deposited data

Results flagged for a closer look

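In 22 of 285 groups of a member and a set of 4 or 5 arrays, the highest or lowest array lay far from the others by Dixon's test. Chance gives this in about 1 in 20 groups. All values are log2 signal, and the range of the other arrays of the group follows each.

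In adipose without Sry, XY- B replicate 5 was high for Krt18 (9.79, others 8.31 to 8.69) and for its fellow member Krt5 (7.47, others 5.87 to 6.16). XY- T replicate 1 was low for Krt23 (6.52, others 7.54 to 7.70). XY- E replicate 3 was low for Krt6b (6.15, others 8.33 to 9.15). XY- E replicate 1, which had the highest epidermal signal, was high for Krtdap (10.22, others 4.74 to 4.92). XY- E replicate 4 was low for Krtcap3 (10.30, others 10.67 to 10.78) and XY- E replicate 5 for Krtcap2 (12.55, others 12.77 to 12.84).

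In adipose with Sry, XXSry T replicate 1 was low for Krt14 (5.28, not above background, others 8.75 to 9.40). XXSry B replicate 2, the array with hair follicle signal, was high for Krt17 (8.12, others 4.64 to 5.24) and Krt4 (5.32, not above background, others 4.95 to 5.01), and XXSry B replicate 4 for Krt6b (7.31, others 4.65 to 5.32). XXSry E replicate 3 was high for Krt5 (5.76, not above background, others 4.87 to 5.00). XY-Sry E replicate 1 was high for Krt17 (7.90, others 4.78 to 5.20). XY-Sry T replicate 2 was high for Krt19 (7.29, others 4.49 to 4.74) and Krt6b (5.41, not above background, others 4.51 to 4.68). XY-Sry T replicate 1 was high for Krt23 (7.06, others 5.01 to 5.44).

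In liver, XXSry T replicate 4 was high for Krt18 (10.94, others 8.85 to 9.31). XY- B replicate 1 and XY- T replicate 3 were low for Krt23 (6.24, others 7.20 to 7.60, and 6.36, others 7.63 to 7.97). XY- E replicate 2 was high for a probe of Krt75, named Krtcap1 in the files (6.47, others 4.94 to 5.07). XX T replicate 1 was low for Krtcap2 (11.72, others 12.12 to 12.28) and XXSry B replicate 5 for Krtcap3 (7.67, others 8.01 to 8.11).

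The estradiol response in adipose differed between gonad types, by limma, for Krt6b (−3.67), Krt15 (−2.14) and Krt4 (−0.94), each given as the response with Sry minus that without. These are differences of measured signal and no fold: Krt4 was above background in 0 of 17 blank arrays, Krt15 in 0 of 8 blank arrays without Sry, and Krt6b in 0 of 9 estradiol arrays with Sry.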

How the results depend on the processing

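No result that was called in the main fit or in an alternative changed direction between them. Changes of sign in results called in neither were not counted. Of the counts of called members, estradiol in adipose went from 9 to 5, and the dependence of estradiol on gonad type from 3 to 0, under the stricter filter, which removed dim members from the test. The same filter took the gonad difference, and that under estradiol, from 12 to 8 each, without Krt15, Krt4, Krt5 and Krt6b. Testosterone in adipose went from 1 to 0 without background correction, with median centring, without the filter, with a slide block, with array weights, with XX E replicate 1 taken as testosterone, with other-tissue covariates, and without the 7 arrays that stood apart. In liver, median centring took estradiol from 1 to 2 called members (Krt10, −0.32, was added) and array weights took testosterone from 0 to 1 (Krtcap2). The correlation of Krt18 with Krt14 with Sry had r = 0.35 (permutation p = 0.0677) without background correction and r = 0.34 (permutation p = 0.0738) with median centring. The cause of these changes was not tested, apart from the filter. With single arrays left out, the called members in adipose numbered 12 to 13 for gonad type, 7 to 8 under blank, 9 under testosterone, 12 under estradiol, 8 to 10 for the estradiol effect, 3 for its dependence on gonad type, and 0 to 1 for testosterone. In liver they numbered 1 for estradiol and 0 to 1 for testosterone, the latter without XX T replicate 1. All other liver counts and the remaining adipose counts stayed at 0. Median centring moved the share of calls that were higher from 35.8% to 23.4% for adipose gonad type and from 52.1% to 8.55% for liver estradiol, where the median of all tested probes became −0.18. No paired analysis was possible because the labels carry no replicate numbers. Signal near background limits Krt4, Krt6b, Krt15, Krt20, Krt78 and Krt82 most.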
